A study of Homo sapiens with 4 samples.

Results

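The proteasome genes of HepG2 cells, 54 protein-coding genes among the 61906 gene identifiers of one RNA-seq table, were followed after treatment with pyridostatin (PDS). They were chosen by name: a GENCODE 44 symbol that starts with PSMA to PSMG and a digit, or POMP, ADRM1, NFE2L1 or UCHL5. The genes of the 20S core particle were compared with those of the 19S regulatory particle. HepG2 is a human hepatocellular carcinoma line, here with a wild-type genotype, and PDS is a small molecule that binds G-quadruplex (G4) structures, stacked folds of guanine-rich DNA. PDS-treated cells received 20 µM PDS for 24 h and mock-treated cells a mock treatment over the same 24 h, with 2 polyadenylated-RNA libraries in each group. HepG2 is a single tumour line in culture, so no other cell type was present in the design. All 9 hepatocyte markers examined averaged at least 1 TPM (the length-corrected unit of the deposited table), and the leukocyte markers summed to 6392 and 7209 TPM in the PDS-treated and 5880 and 5970 TPM in the mock-treated libraries, nearly all of it lysozyme (LYZ). Neither of the 2 erythroid markers reached a mean of 1 TPM.

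The proteasome degrades proteins tagged with ubiquitin. Its core particle is a barrel of outer α rings (PSMA genes) and inner β rings (PSMB genes), of which PSMB5, PSMB6 and PSMB7 carry the catalytic sites. The regulatory particle caps the barrel: a base with a ring of ATPases (PSMC genes) unfolds the substrate, non-ATPase subunits such as PSMD4 and ADRM1 bind ubiquitin, and a lid holds the deubiquitinase PSMD14. Dedicated chaperones assemble both particles, other activators can replace the regulatory particle, and the transcription factor NFE2L1 raises proteasome gene transcription when the proteasome is impaired. The name pattern also took in PSMC3IP, a meiotic recombination factor, and PSME3IP1, a partner of PSME3, which are no proteasome subunits. That left 52 proteasome genes.

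Of the 54 genes, 51 averaged at least 1 TPM over the 4 libraries and were tested. The PDS-treated libraries held 15573166 and 19647907 gene-assigned reads and the mock-treated libraries 39217670 and 30408397, as recovered from the table. A tested gene had between 75 and 10135 reads in a PDS-treated library and between 124 and 22414 in a mock-treated one. The testis-specific PSMA8 and the thymus-specific PSMB11 were near 0 in all libraries. PSMA2, an α-ring subunit, was also near 0, with 0.135 and 0.0618 TPM in PDS-treated and 0.309 and 0.235 TPM in mock-treated cells. These values rest on 7 and 4 reads in PDS-treated and 31 and 18 reads in mock-treated libraries. Its annotation shares 29.7% of its exon bases with other genes, 17.2% on its own strand, so reads may have been left unassigned and its level is uncertain.

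As deposited, the TPM of most genes was lower in PDS-treated cells: the median of 14686 tested genes had a log2 fold change (PDS over mock) of −0.55. The summed TPM of the 54 genes was 5525 and 5443 in PDS-treated and 7784 and 7918 in mock-treated cells. Without rescaling, 48 of the 51 tested genes were called lower and 0 higher by limma at an adjusted p below 0.05, and 0 were higher at an unadjusted p below 0.05. Of all tested genes, 71.8% were called lower. Both PDS-treated libraries lay below both mock-treated ones in 49 of the 51 genes, beside 82.1% of all tested genes. For all further values, TPM was divided by one median-of-ratios factor per library (scaled TPM), which sets the median gene to no change. An equal fall in the RNA of every gene would not be seen on this scale, nor in TPM as deposited, which sums to the same total in each library. In bulk RNA, fewer cells and less RNA per cell cannot be told apart.

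Relative to the median gene, 9 of the 51 tested genes rose in PDS-treated cells and 4 fell. That is 17.6% higher, beside 16.2% of all tested genes, and 7.84% lower, beside 13% of all tested genes. Without PSMC3IP and PSME3IP1, 9 of the 49 proteasome genes rose (18.4%) and 2 fell (4.08%). No test of these shares was made. The 9 genes that rose were PSMG3, PSMB10, PSMA7, POMP, PSMB4, PSME1, PSMD13, ADRM1 and PSMB1, with fold changes between 1.16 and 1.44. The 4 that fell were PSMC3IP, PSMG1, UCHL5 and PSME3IP1, with fold changes between 0.747 and 0.845 relative to mock-treated cells. Each of these 13 genes kept its direction under the 16 other ways of processing that rescaled the libraries, whereas the 9 that rose were all negative in TPM as deposited. With 2 libraries a group the calls were thinly supported: leaving out 1 library left 0 of the 13 calls without either mock-treated library, 1 (PSMG3) without PDS-treated library 1, and 2 (PSMG3 and PSMB10) without PDS-treated library 2. Dropping the filter on low values also left 0 of them, although 17 genes were higher and 7 lower at an unadjusted p below 0.05.

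**Figure D1:**
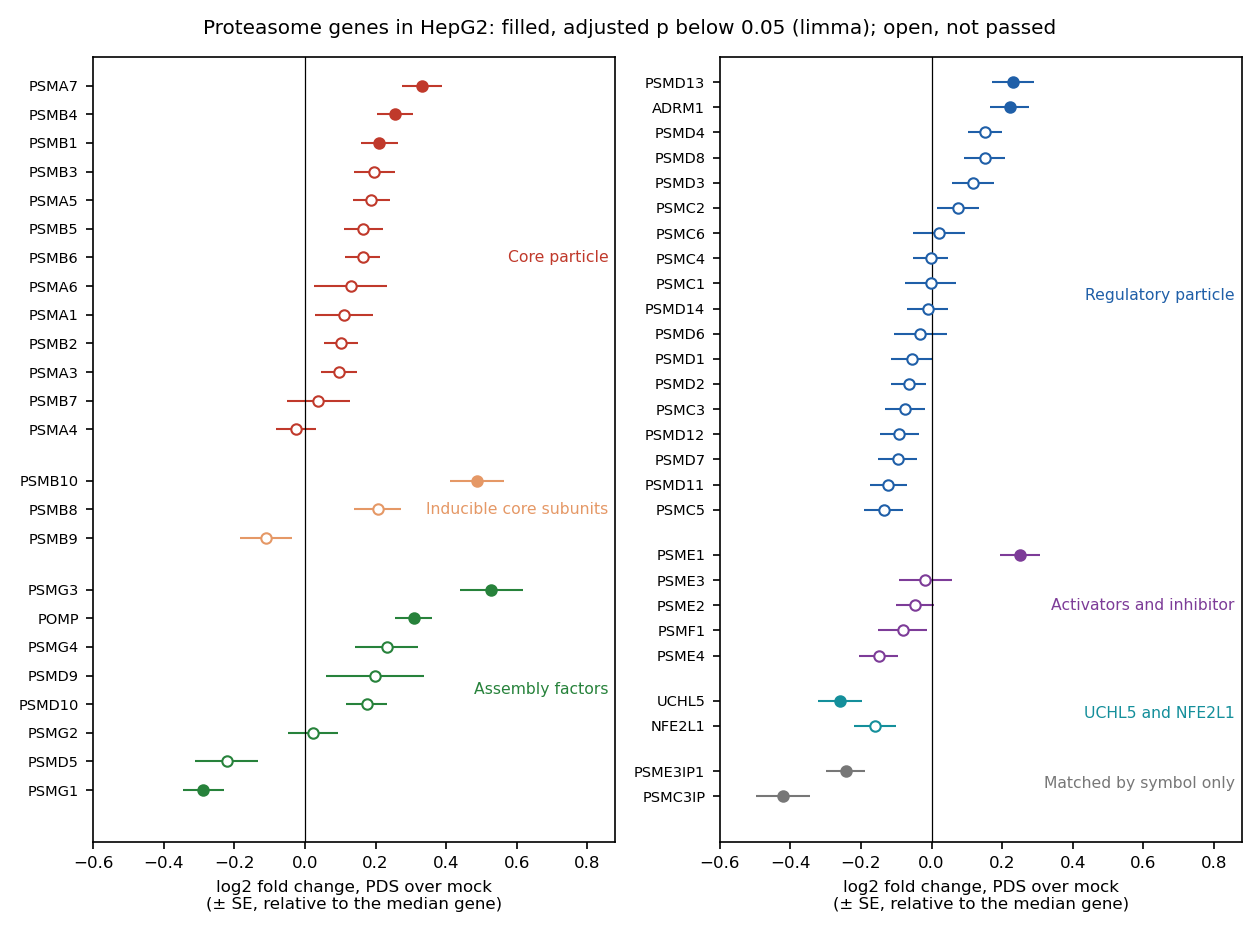
Log2 fold change (PDS over mock, horizontal axis, relative to the median gene) of the 51 tested genes, with bars of 1 SE from limma on 2 libraries a group. Filled points passed an adjusted p below 0.05. The core particle subunits lie between −0.03 and 0.33 and the regulatory particle subunits between −0.14 and 0.23.

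Promoters are shown for 4 genes that changed, because they hold letters that bear on the treatment or on NFE2L1. RefSeq windows of 300 bases, 250 before and 50 after the annotated start (GRCh38.p14), were found for 48 of the 54 genes. Each was searched on both strands for TGACNNNGC, the core of the element bound by NFE2L1 and its relatives, for CCAAT, and for a G4 motif of 4 runs of at least 3 G separated by 1 to 7 bases. Matches to TGACNNNGC and to the G4 motif are in capitals; a G4 match on the opposite strand reads as runs of C. The 4 windows, 5′ to 3′ on the strand of the gene, were:

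POMP chr13:28658880-28659179 (+ strand): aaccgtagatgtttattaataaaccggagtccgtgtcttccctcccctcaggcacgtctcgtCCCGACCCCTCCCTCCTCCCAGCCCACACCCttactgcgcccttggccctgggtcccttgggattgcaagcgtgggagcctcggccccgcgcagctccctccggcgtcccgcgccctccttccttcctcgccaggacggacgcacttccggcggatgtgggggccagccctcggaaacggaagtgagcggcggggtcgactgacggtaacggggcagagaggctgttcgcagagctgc

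PSME1 chr14:24135944-24136243 (+ strand): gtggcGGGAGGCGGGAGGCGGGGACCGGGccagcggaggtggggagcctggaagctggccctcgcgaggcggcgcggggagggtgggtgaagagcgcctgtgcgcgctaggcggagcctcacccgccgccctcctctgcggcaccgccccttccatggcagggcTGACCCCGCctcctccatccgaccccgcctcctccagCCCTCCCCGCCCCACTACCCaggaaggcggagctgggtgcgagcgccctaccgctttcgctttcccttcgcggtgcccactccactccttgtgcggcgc

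ADRM1 chr20:62302646-62302945 (+ strand): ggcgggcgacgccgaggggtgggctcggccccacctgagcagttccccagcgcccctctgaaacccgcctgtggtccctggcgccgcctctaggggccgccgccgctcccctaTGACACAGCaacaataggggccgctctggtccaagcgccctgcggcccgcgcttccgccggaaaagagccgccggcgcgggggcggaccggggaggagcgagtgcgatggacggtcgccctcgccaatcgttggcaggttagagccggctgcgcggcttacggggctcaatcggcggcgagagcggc

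PSMG1 chr21:39183402-39183701 (- strand): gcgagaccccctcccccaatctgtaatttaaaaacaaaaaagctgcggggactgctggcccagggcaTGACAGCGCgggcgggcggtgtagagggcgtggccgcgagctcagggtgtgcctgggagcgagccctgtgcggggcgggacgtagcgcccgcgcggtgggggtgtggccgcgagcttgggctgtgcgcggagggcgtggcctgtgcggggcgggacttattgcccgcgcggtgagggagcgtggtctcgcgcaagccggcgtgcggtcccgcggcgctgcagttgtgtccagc

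The POMP window has 3 overlapping G4 matches, all on the opposite strand and starting 188 or 178 bases before the annotated start. PSME1 has a G4 match on each strand and 1 TGACNNNGC match. ADRM1 and PSMG1 have 1 TGACNNNGC match each, although ADRM1 rose and PSMG1 fell. Among the 46 proteasome genes with a window, 30.4% held TGACNNNGC, beside 13.3% of all 35116 RefSeq windows of that length and 15.8% of those of tested genes. By particle, TGACNNNGC was in 1 of 10 core windows (10%) and 5 of 17 regulatory windows (29.4%). The 14 tested proteasome genes with it had a median log2 fold change of −0.02, and the 29 without it one of 0.07. Over all tested genes with a window, these medians were −0.0056 with and −0.03 without it. CCAAT was in 45.7% of the 46 windows, beside 34.6% of all windows. The G4 motif was in 23.9%, beside 25.0% of all windows and 34.0% of those of tested genes. Of the 11 tested proteasome genes with a G4 match, 2 rose (POMP and PSME1) and 0 fell, with a median log2 fold change of −0.0022. Of the 32 without one, 4 rose and 2 fell, with a median of 0.05. PSMG3, PSMA7 and PSMB1, which also rose, had no window and are in neither group. Over all tested genes with a window, 566 of 3296 with a G4 match rose and 484 fell, and 964 of 6390 without one rose and 981 fell. The medians over these genes were −0.0087 with and −0.03 without a G4 match. A match describes the letters of the window and no binding was measured here.

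In the core particle, 3 of the 13 tested subunits rose (23.1%, beside 16.2% of all tested genes). None of these 13 fell, in the limma test or at an unadjusted p below 0.05, whereas 13% of all tested genes fell by limma. The median log2 fold change was 0.16, a 1.12-fold higher level, and 12 of the 13 values were positive, beside 7342 of all 14686 tested genes. All 13 were negative in TPM as deposited, and the core median was −0.02 after quantile normalization. PSMA7 (GRCh38 chr20:62136733-62143440, - strand), an α-ring subunit, had 777 and 750.1 scaled TPM in PDS-treated cells, against 620 and 594 in mock-treated cells. Both PDS-treated libraries were above both mock-treated ones, and the log2 fold change was 0.33 ± 0.057 (SE, n = 2 libraries a group; limma, adjusted p = 0.017). The call held in 7 of 13 alternatives that kept all libraries. Among the others, PSMA7 was at 0.0004 after quantile normalization and 0.18 with the exon length and GC trends removed (limma, adjusted p = 0.996 and 0.0639). In TPM as deposited it was called lower, at −0.32 (limma, adjusted p = 0.00352). PSMA7 had the largest change in the α ring, followed by PSMA5 with 76.9 and 77.1 scaled TPM in PDS-treated and 69.1 and 65.9 in mock-treated cells (log2 fold change 0.19 ± 0.053; limma, adjusted p = 0.0551, not passed; 0.28 and past the threshold, adjusted p = 0.033, with the trends removed). PSMA4 was the one tested core subunit below 0, at −0.03.

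All 7 β-ring subunits had positive values, from 0.04 in PSMB7 to 0.25 in PSMB4. PSMB4, a structural subunit, had 280.0 and 291 scaled TPM in PDS-treated and 239 and 239 in mock-treated cells, with no overlap (log2 fold change 0.25 ± 0.051; limma, adjusted p = 0.0243). PSMB1, also structural, had 367 and 352 scaled TPM in PDS-treated and 308 and 313 in mock-treated cells, again with no overlap (0.21 ± 0.053; limma, adjusted p = 0.0407). With the length and GC trends removed, PSMB4 was at 0.14 and PSMB1 at 0.12, and neither passed (limma, adjusted p = 0.109 and 0.137). After quantile normalization they were at 0.07 and 0.02 (limma, adjusted p = 0.285 and 0.832). The catalytic subunits did not pass the test. PSMB5, which carries the chymotrypsin-like activity, was the most abundant of all 54 genes, at 1100.0 and 1069 scaled TPM in PDS-treated and 980.3 and 954 in mock-treated cells (0.17 ± 0.056; limma, adjusted p = 0.0828). PSMB6, with the caspase-like activity, had 276 and 285 scaled TPM in PDS-treated and 249.6 and 251 in mock-treated cells (0.16 ± 0.050; limma, adjusted p = 0.0662). In both genes the groups did not overlap. PSMB7, with the trypsin-like activity, had 270.2 and 317 scaled TPM in PDS-treated and 292 and 279 in mock-treated cells, which overlapped (0.04 ± 0.090; limma, adjusted p = 0.78).

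The inducible subunits PSMB8, PSMB9 and PSMB10 replace PSMB5, PSMB6 and PSMB7 in the immunoproteasome, which favours peptides for antigen presentation. PSMB10 (GRCh38 chr16:67934506-67936864, - strand) had 9.97 and 9.14 scaled TPM in PDS-treated and 6.50 and 6.54 in mock-treated cells. Both PDS-treated values were higher, and the log2 fold change was 0.49 ± 0.077 (limma, adjusted p = 0.0147). PSMB10 shares 39.4% of its exon bases with a gene annotated on the same strand (0.199 and 0.456 TPM as deposited in PDS-treated, 0.588 and 0.519 in mock-treated cells), so its assigned reads are uncertain. PSMB8 had 29.2 and 26.8 scaled TPM in PDS-treated and 23.8 and 24.3 in mock-treated cells, not overlapping but not past the threshold (0.21 ± 0.067; limma, adjusted p = 0.0749). PSMB9 had 8.94 and 8.37 scaled TPM in PDS-treated and 9.58 and 9.25 in mock-treated cells (−0.11 ± 0.072; limma, adjusted p = 0.298). PSMB8 and PSMB9 lie side by side on opposite strands with shared exon bases, and strand use in the counting is not given in the sources used here. Per length, the 3 inducible genes lay far below PSMB5, PSMB6 and PSMB7 in every library.

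In the regulatory particle, 2 of the 18 subunits that the symbol rule took in rose, ADRM1 and PSMD13 (11.1%, beside 16.2% of all tested genes). Of these subunits 0 fell in the limma test or at an unadjusted p below 0.05, whereas 13% of all tested genes fell by limma. The median log2 fold change was −0.0069, and 7 of the 18 values were positive. The calls depended on the processing: by limma, 0 were higher and 4 lower after quantile normalization, 0 higher and 1 lower with the length and GC trends removed, and all 18 lower in TPM as deposited. ADRM1, a ubiquitin receptor of the base, had 206 and 201 scaled TPM in PDS-treated and 179 and 170.1 in mock-treated cells, with no overlap (0.22 ± 0.055; limma, adjusted p = 0.0383). It did not pass with the length and GC trends removed or after quantile normalization, at 0.06 in both (limma, adjusted p = 0.341 and 0.392). It shares 17.2% of its exon bases with genes on the opposite strand, LAMA5 among them. PSMD4, another ubiquitin receptor, had 154 and 155 scaled TPM in PDS-treated and 139 and 139 in mock-treated cells (0.15 ± 0.048; limma, adjusted p = 0.0716, not passed). In the lid, PSMD13 had 57.9 and 55.9 scaled TPM in PDS-treated and 49.9 and 46.8 in mock-treated cells, with no overlap (0.23 ± 0.060; limma, adjusted p = 0.0437). PSMD8, also of the lid, had 100.4 and 103 scaled TPM in PDS-treated and 94.9 and 88.6 in mock-treated cells (0.15 ± 0.059; limma, adjusted p = 0.117, not passed). The lid deubiquitinase PSMD14 was at −0.01. PSMD13 was at 0.24 with the length and GC trends removed and at 0.13 after quantile normalization, past the threshold in neither (limma, adjusted p = 0.052 and 0.17). A further lid subunit, SEM1, lies outside the symbol rule and is named here after its values were seen. It had 31.4 and 32.6 scaled TPM in PDS-treated and 26.2 and 25.3 in mock-treated cells, with no overlap (0.30 ± 0.058; limma, adjusted p = 0.021), and is counted below among the genes that work with the proteasome.

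None of the 6 base ATPases passed the limma test, but PSMC3 passed as lower with the length and GC trends removed (−0.19; adjusted p = 0.046), and PSMC3 and PSMC5 did so after quantile normalization (−0.25 in each; adjusted p = 0.0348 and 0.0272). Their log2 fold changes ran from −0.14 in PSMC5 to 0.07 in PSMC2. PSMC5 had 72.0 and 76.1 scaled TPM in PDS-treated and 81.0 and 81.7 in mock-treated cells (−0.14 ± 0.055; limma, adjusted p = 0.128). PSMC2 had 27.2 and 26.2 scaled TPM in PDS-treated and 25.9 and 24.8 in mock-treated cells (0.07 ± 0.060; limma, adjusted p = 0.391). Although the ATPases form one ring, their levels per length differed 10.8-fold and 9.32-fold between the lowest and the highest in the PDS-treated libraries and 10.9-fold and 10.2-fold in the mock-treated ones, with PSMC3 the highest and PSMC1 the lowest in all 4 libraries. These levels rest on the summed length of all annotated exons, which rare isoforms can lengthen. PSMC1 also shares 76.1% of its exon bases with a gene on the opposite strand, NRDE2, so its assigned reads and its place as the lowest are uncertain.

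The core particle median exceeded the regulatory particle median by 0.17 on the log2 scale. For the 4 pairings of 1 PDS-treated with 1 mock-treated library the difference lay between 0.13 and 0.20, whereas it was 0.0015 between the 2 PDS-treated and 0.04 between the 2 mock-treated libraries. Of the 13 core subunits, 12 lay above the regulatory median, and 16 of the 18 regulatory subunits lay below the core median. The groups of libraries did not overlap, with PDS-treated higher, in 9 core and 6 regulatory subunits, and with PDS-treated lower in 0 core and 7 regulatory subunits (35.2% of all tested genes did not overlap with PDS-treated higher and 35.6% with PDS-treated lower). The ratio of the summed TPM of the core to that of the regulatory subunits, which needs no scaling between libraries, was 2.53 and 2.52 in PDS-treated and 2.27 and 2.25 in mock-treated cells. Without PSMB5 it was 1.82 and 1.83 in PDS-treated and 1.63 and 1.62 in mock-treated cells. With 2 libraries against 2, an exact permutation test cannot give a two-sided p below 0.333, and no test of the difference was made.

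The difference moved with exon length. The core subunits are the shorter: their median summed exon length was 2219 bases, against 4956.5 bases in the regulatory particle. Over all tested protein-coding genes, the median log2 fold change was 0.25 for genes of up to 2000 bases, 0.08 up to 4000, −0.01 up to 6000, −0.09 up to 8000, −0.14 up to 12000 and −0.19 above. Of the 13 tested core subunits, 5 are in the shortest class, which holds no regulatory subunit, and their median of 0.17 lay below that of the class. Between 2000 and 4000 bases, 4 core subunits had a median of 0.16 and 5 regulatory subunits one of −0.0022; between 4000 and 6000 bases, 2 core subunits had 0.15 and 6 regulatory subunits 0.03. After a smooth trend on exon length and GC content was removed from each library, the core median was 0.08, the regulatory median 0.08 and their difference 0.0042. With the trend on length alone removed the difference was −0.02, and with that on GC alone 0.13. Quantile normalization left a difference of 0.04, with medians of −0.02 in the core and −0.06 in the regulatory particle. Across the 49 tested proteasome genes, log2 fold change and log2 exon length had r = −0.41 and rho = −0.42, a description over genes that share the same 4 libraries. Over all tested protein-coding genes r was −0.38.

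**Figure D2:**
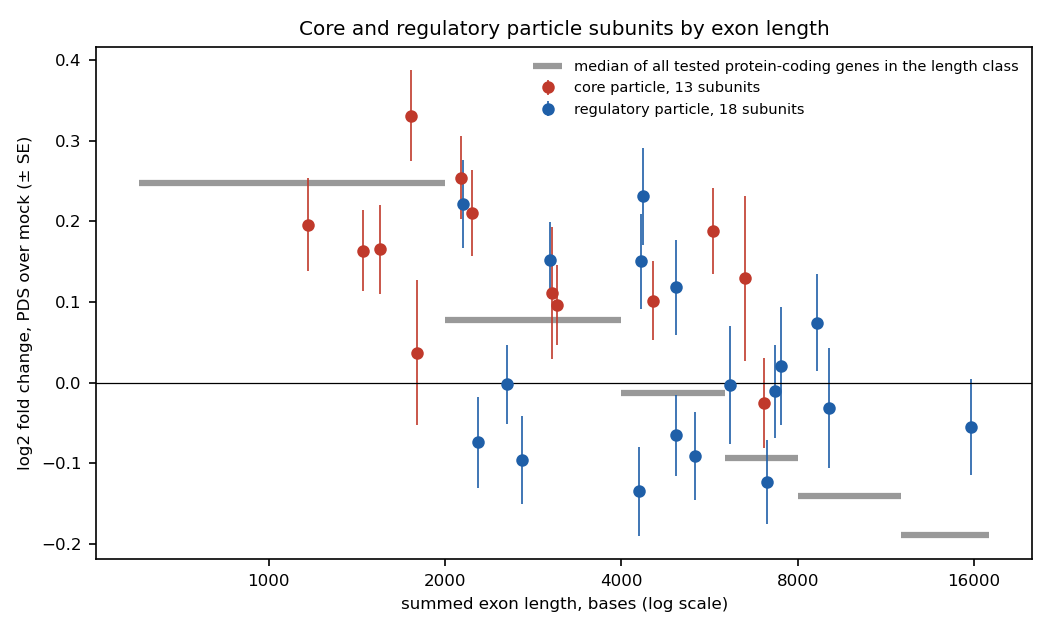
Log2 fold change (PDS over mock, ± SE) against summed exon length in bases (log scale) for 13 core and 18 regulatory particle subunits. Grey lines are the medians of all tested protein-coding genes in 6 length classes, which run from 0.25 to −0.19, and 5 core subunits but no regulatory subunit lie in the shortest class.

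**Figure D3:**
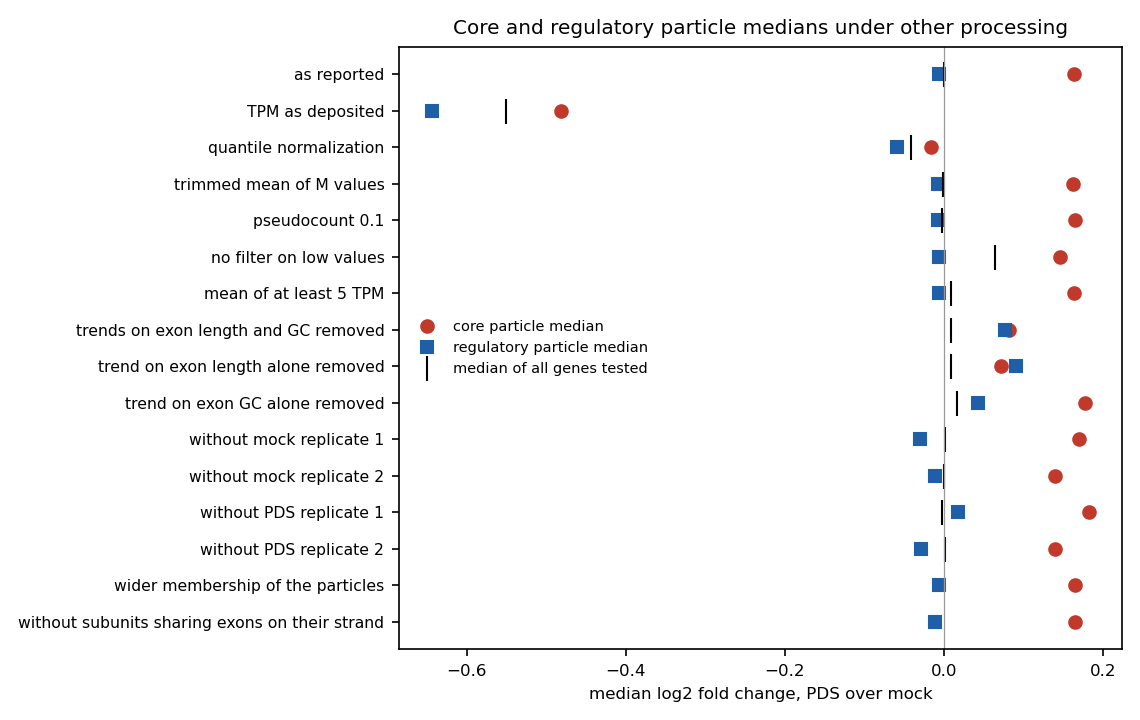
Median log2 fold change (PDS over mock) of the core particle (circles) and the regulatory particle (squares) under other ways of processing. Fits with a replicate block or without a variance trend are not drawn. Black ticks are the median of all genes tested, absent where only the choice of subunits was changed. The difference is 0.17 as reported, 0.04 after quantile normalization and 0.0042 after the exon length and GC trends were taken out.

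The assembly factors changed in both directions. PSMG3 (GRCh38 chr7:1567332-1571005, - strand), which pairs with PSMG4 in a chaperone of the α ring, had 43.7 and 37.4 scaled TPM in PDS-treated and 27.1 and 28.4 in mock-treated cells. This was the largest rise among the 51 tested genes, a log2 fold change of 0.53 ± 0.090 (limma, adjusted p = 0.0167). POMP, which guides the β subunits onto the α ring, had 57.8 and 57.4 scaled TPM in PDS-treated and 45.5 and 47.2 in mock-treated cells, with no overlap (0.31 ± 0.053; limma, adjusted p = 0.0171). PSMG1 (GRCh38 chr21:39174769-39183488, - strand), the chaperone that starts α-ring assembly together with PSMG2 and was singled out here after its values were seen, had 63.4 and 62.0 scaled TPM in PDS-treated and 74.2 and 79.4 in mock-treated cells. It fell by 0.29 on the log2 scale (± 0.059; limma, adjusted p = 0.025), while its partner PSMG2 was at 0.02 (limma, adjusted p = 0.841). PSMG4 was at 0.23 (limma, adjusted p = 0.115), and at 0.37 with the trends removed, where it passed (limma, adjusted p = 0.0446). With the trends on exon length and GC removed, POMP stood at 0.37, PSMG3 at 0.38 and PSMG1 at −0.40, each past the threshold by limma (adjusted p = 0.011, 0.0376 and 0.0108).

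The base chaperones did not pass the limma test in any of the 3 genes. PSMD5 had 12.3 and 10.9 scaled TPM in PDS-treated and 13.1 and 14.3 in mock-treated cells (−0.22 ± 0.089; adjusted p = 0.124 by limma). PSMD9 had 3.35 and 2.81 scaled TPM in PDS-treated and 2.29 and 2.83 in mock-treated cells, which overlapped (0.20 ± 0.14; adjusted p = 0.33 by limma). PSMD10 was at 0.17 (adjusted p = 0.0796 by limma). PSMD9 had the lowest level per length of the 51 tested genes in every library.

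Among the alternative activators, PSME1, a subunit of the 11S activator ring, had 484 and 512 scaled TPM in PDS-treated and 420.1 and 416 in mock-treated cells, with no overlap (0.25 ± 0.056; limma, adjusted p = 0.0301). With the length and GC trends removed it was at 0.10 and after quantile normalization at 0.0043, and passed in neither (limma, adjusted p = 0.257 and 0.948). PSME2, its partner in the ring, was at −0.05 (limma, adjusted p = 0.534). PSME4, a single-chain activator of nuclear proteasomes, had 36.0 and 35.5 scaled TPM in PDS-treated and 38.9 and 40.7 in mock-treated cells, not overlapping but not past the threshold (−0.15 ± 0.056; limma, adjusted p = 0.104). After quantile normalization it passed, at −0.21 (limma, adjusted p = 0.0487). PSME3 was at −0.02 and PSMF1, an inhibitor of the core particle in vitro, at −0.08.

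UCHL5 (GRCh38 chr1:193012250-193060080, - strand), the deubiquitinase that ADRM1 recruits to the regulatory particle, had 17.2 and 16.2 scaled TPM in PDS-treated and 20.1 and 20.2 in mock-treated cells. It fell by 0.26 on the log2 scale (± 0.062; limma, adjusted p = 0.0353). With the length and GC trends removed UCHL5 was at −0.14 (limma, adjusted p = 0.187). NFE2L1 had 166 and 177 scaled TPM in PDS-treated and 196 and 188 in mock-treated cells, with no overlap, and did not pass (−0.16 ± 0.060; limma, adjusted p = 0.103). It passed under quantile normalization, at −0.32 (limma, adjusted p = 0.0155). NFE2L1 is regulated largely as a protein, which was not measured here.

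The genes matched by symbol alone both fell. PSMC3IP had 5.82 and 6.27 scaled TPM in PDS-treated and 8.44 and 8.42 in mock-treated cells (−0.42 ± 0.076; limma, adjusted p = 0.0192), with 30.3% of its exon bases shared with genes on the opposite strand. PSME3IP1 had 24.6 and 24.4 scaled TPM in PDS-treated and 29.5 and 28.9 in mock-treated cells (−0.24 ± 0.055; limma, adjusted p = 0.0312). Both kept their calls by limma under quantile normalization and with the length and GC trends removed.

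**Figure D4:**
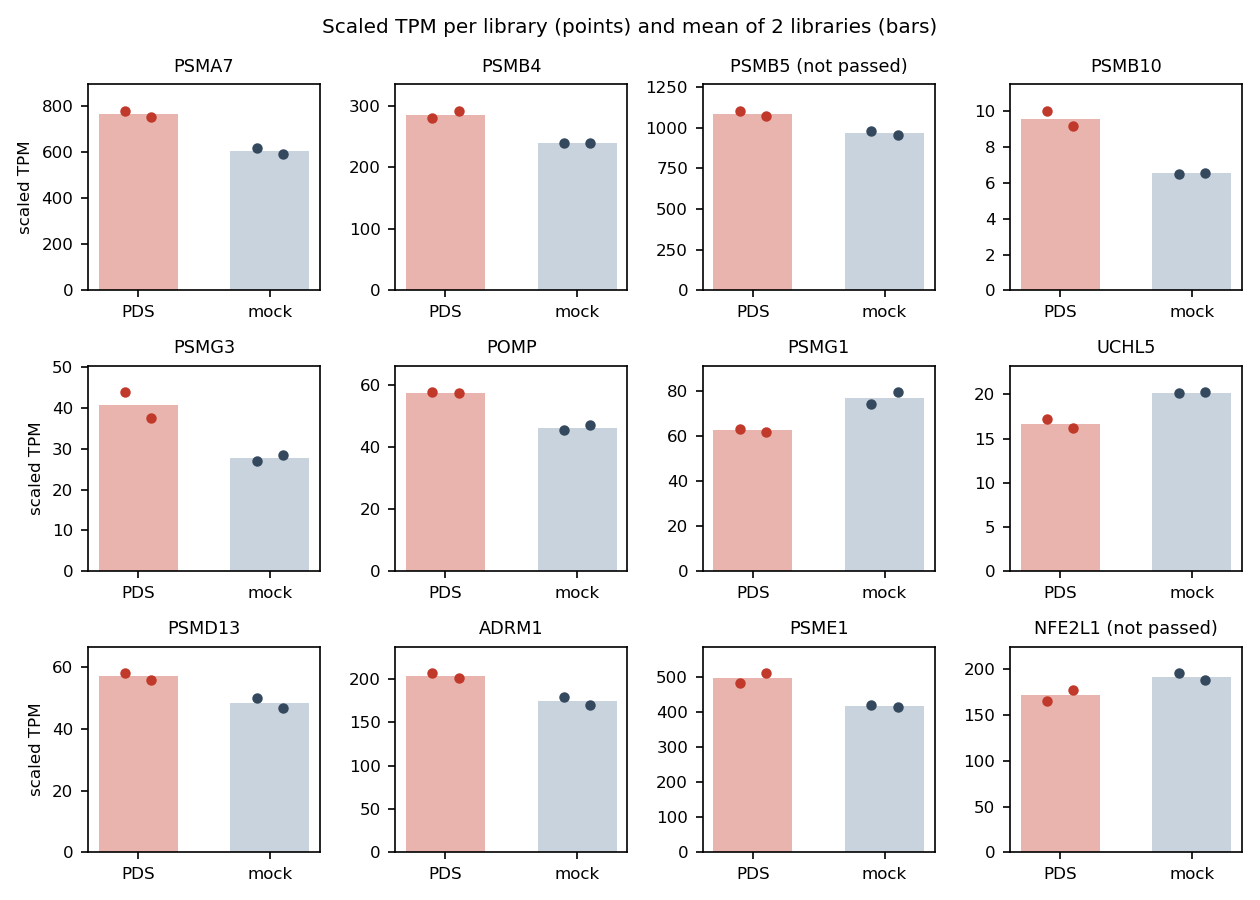
Scaled TPM of 12 proteasome genes in each library (points) with the mean of the 2 libraries (bars), PDS-treated left of mock-treated. PSMB5 and NFE2L1 did not pass the limma test; the other 10 did, and in all 12 both PDS-treated libraries lie on one side of both mock-treated ones.

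Genes that work with the proteasome were listed apart: 33 ubiquitin genes, shuttle and p97 factors, proteasome-bound proteins and partners of NFE2L1, all of which were tested. Of these, 7 rose (21.2%, beside 16.2% of all tested genes) and 6 fell (18.2%, beside 13%), with a median log2 fold change of 0.07. MAFF and MAFK, small MAF proteins that pair with NFE2L1 on DNA, rose by 0.65 ± 0.12 and 0.58 ± 0.12 on the log2 scale (limma, adjusted p = 0.0192 and 0.0266). DDI2, the protease that activates NFE2L1, fell to 7.51 and 7.26 scaled TPM in PDS-treated cells, against 10.8 and 13.3 in mock-treated cells (−0.63 ± 0.11; limma, adjusted p = 0.0173). ECPAS, which binds and restrains the proteasome, fell by 0.47 ± 0.052, and ZFAND2A, a proteasome-bound stress protein, rose by 0.41 ± 0.057 (limma, adjusted p = 0.0076 and 0.0115). In TPM as deposited MAFF and MAFK were not called, at 0.03 and −0.05 (limma, adjusted p = 0.789 and 0.715). There ZFAND2A was called lower, at −0.23 (limma, adjusted p = 0.0161).

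Proteasome products feed antigen presentation. Of 12 genes of that pathway, all tested, 6 rose and 0 fell by limma, although 2 were lower at an unadjusted p below 0.05, and the median log2 fold change was 0.21 (−0.35 in TPM as deposited). HLA-B, a class I heavy chain, had 54.3 and 51.0 scaled TPM in PDS-treated and 33.5 and 33.9 in mock-treated cells (0.63 ± 0.058; limma, adjusted p = 0.0066). HLA-C rose by 0.51, B2M (the class I light chain) by 0.50, TAP1 (peptide transporter) by 0.32 and TAPBP (peptide loading) by 0.23, with limma adjusted p between 0.0069 and 0.0452; TAPBP did not pass after quantile normalization (adjusted p = 0.0795). HLA genes are near-identical copies whose reads can be split or dropped, so their levels are uncertain. The list's share called higher was 50%, beside 16.2% of all tested genes, and no test of the list was made.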

How the data were processed

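Gene expression was measured by RNA-seq of polyadenylated RNA in HepG2 cells, 2 libraries each of PDS-treated and mock-treated cells. Per the study's methods and the submitters' processing notes, reads were aligned to GRCh38 with STAR (v.2.7.0) and assigned to genes with featureCounts (v.2.0.3). The deposited signal column of each library holds the TPM that the authors computed, which are length-corrected and sum to the same total; they are no counts, so no count model was fitted. Annotation release and strand setting: not given in the sources used here. Besides, the table holds the authors' mean per group, not used here, and 2 rows of column totals, left out. Per library, at least 99.89% of low values were whole reads (tolerance 0.05) once multiplied by exon length, which gave the depth; precision rests on 2 libraries a group.

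Identifiers were matched to GENCODE 44 (99.8%). Genes averaging at least 1 TPM were kept (14686), divided by median-of-ratios factors (0.806 and 0.793 for PDS-treated, 1.23 and 1.27 for mock-treated libraries) and tested as log2(scaled TPM + 1) with limma (v.3.58.1, R v.4.3.3; variance trend, two-sided, Benjamini-Hochberg over all genes, threshold 0.05). Fold changes on this scale understate changes of low genes. The script was tested on simulated data. The design describes the replicates as biological, but the labels name no separate cultures, so each p reflects the spread between these libraries alone, which may be technical. The members, lists and tests were chosen with earlier results of these data known. Library values were given for the 2 largest absolute fold changes of each functional part and for the catalytic and inducible subunits. They were also given for POMP, ADRM1, UCHL5, NFE2L1 and the genes matched by symbol only. Up to 6 called genes of each other list were chosen by absolute fold change, most of them given without library values. Of those called genes, 2 are not reported here by name. Alternatives covered scaling, pseudocount, filter, variance trend, exon length and GC trends, replicate block and each library left out.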

Additional observations from a re-analysis of the deposited data

How the results depend on the processing

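Relative to the median gene, 4283 genes of the table were called, among them 9 of the 51 tested proteasome-named genes higher and 4 lower. Here and below, these include PSMC3IP and PSME3IP1, matched by symbol only. In TPM as deposited, 10917 genes were called, 0 proteasome genes higher (0 at an unadjusted p below 0.05 by limma) and 48 lower, with medians of −0.48 in the core and −0.64 in the regulatory particle. There PSMA7 stood at −0.32, POMP at −0.33, PSMB4 at −0.39, PSME1 at −0.40 and PSMD13 at −0.40. ADRM1 stood at −0.42, PSMB1 at −0.44, PSMG3 at −0.10 and PSMB10 at −0.0867 on the same scale. The median of all tested genes there was −0.55, with 379 called higher and 10538 lower. Quantile normalization gave 3 proteasome genes higher and 10 lower, medians of −0.0157 and −0.0597 and a difference of 0.0440. Without a filter, 1237 genes were called but 0 proteasome genes in either direction by limma (17 higher and 7 lower at an unadjusted p below 0.05). Without a variance trend, 4 were higher and 1 lower. Removing trends on exon length and GC left 5 higher and 4 lower, with 6 of the 13 calls still held, medians of 0.0813 and 0.0771 and a difference of 0.0042. Chosen after seeing the data, removing length alone gave medians of 0.0722 and 0.0905 and a difference of −0.0184, and GC alone a regulatory median of 0.0423. Trimmed-mean scaling, a pseudocount of 0.1 and a minimum of 5 TPM kept all 13 calls.

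The replicate numbers are only shared numbers: deviations of same-numbered libraries had r = −0.03 over genes, and −0.15 over genes averaging at least 5 TPM. With replicate number as a replicate block, 2817 genes were called, 4 proteasome genes higher and 1 lower; with the block and the trends removed, 2484 genes, 1 higher and 2 lower, with medians of 0.0813 and 0.0771 and a difference of 0.0042. Crossing the numbers, added after seeing the data, gave 4603 genes, 8 higher and 4 lower. Leaving out 1 library at a time, the lone library assumed to vary like the other group, gave between 0 (without mock-treated library 2; 4173 at an unadjusted p below 0.05) and 2117 genes, between 0 and 2 proteasome genes higher, 0 lower in each of the 4 fits (between 4 and 6 at an unadjusted p below 0.05), and a regulatory median between −0.0303 and 0.0175. The PDS-treated libraries were the shallower, and of the 51 tested proteasome-named genes PSMC3IP (75 and 99) and PSMB10 (81 and 91) had the fewest reads there.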

Other observations

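Another 51 identifiers carry a symbol of the same pattern but are no protein-coding genes, 42 of them processed pseudogenes, and 5 of those pseudogenes and 1 long non-coding RNA were tested. PSMA6P1 had 9.996 and 10.4 scaled TPM in PDS-treated and 5.94 and 7.76 in mock-treated cells, with no overlap (log2 fold change 0.52 ± 0.13; limma, adjusted p = 0.0373). Its parent PSMA6 had 47.0 and 56.8 scaled TPM in PDS-treated and 48.7 and 45.7 in mock-treated cells, which overlapped (0.13; limma, adjusted p = 0.385). Reads of a pseudogene and its parent can be exchanged, and whether this bears on either value was not tested. The long non-coding PSMA3-AS1 was at 0.07 (limma, adjusted p = 0.633).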
